A study of Mus musculus with 8 samples.

Results

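The 33 genes described here are type I interferon response genes of the mouse, known as interferon-stimulated genes. They are a list of symbols, taken out of the 24786 gene symbols counted in this study. All 33 are in the files, all had at least 100 counts in every library, and all were among the 15254 genes that passed the filter on low counts. Polyadenylated RNA of hepatic macrophages was sequenced in 8 libraries, 2 for each of 4 groups, all from mice of the C57BL/6 strain. Kupffer cells are the resident macrophages of the liver, and the second subset is labelled as monocyte-derived macrophages (MoM). Each subset came from wild-type (WT) mice and from mice of the dnTGFβRII genotype (TG), a strain in which T cells, not macrophages, express a dominant-negative form of TGF-β receptor II under a Cd4 promoter and which develops an autoimmune cholangitis. The labels give no treatment, no age and no sorting gate. They do not say whether the libraries numbered 1 and 2 of a group came from separate animals or from pools, so p-values measure only the spread between these libraries.

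Type I interferons (interferon beta and the interferon alphas) bind the receptor IFNAR1 and IFNAR2. The kinases JAK1 and TYK2 then phosphorylate STAT proteins, STAT2 among them, which join IRF9 in the complex ISGF3 and bind the interferon-stimulated response element (ISRE) near their target genes. Interferon gamma uses another receptor and acts mainly through the gamma-activated site (GAS), and some genes answer to both. In the liver, Kupffer cells meet microbial RNA and DNA arriving from the gut, and many of the genes below are sensors or effectors against viruses.

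The promoter sequences are shown first because ISGF3 reads them and the rule that picked the genes did not. The RefSeq table of promoters (GRCm38.p6, 250 bases before to 50 bases after a start) held 24 of the 33 genes, in 26 entries. Mx1, Mx2, Zbp1, Parp9, Parp14, Usp18, Dhx58, Rtp4 and Oas2 were the 9 that it did not match. The ISRE core was searched on both strands as GAAANNGAAA, which reads TTTCNNTTTC on the opposite strand. At least 1 promoter entry held it for 12 of the 24 member genes (50%), against 3.99% of all 27025 genes and 3.44% of all 32851 promoters in the table. The GAS core TTCNNNGAA, a palindrome that can overlap the ISRE core by a few bases, was found for 6 of the 24 genes (25%: Ifit2, Oas1a, Bst2, Ifitm3, Ifi35 and Eif2ak2), against 9.55% of all genes and 8.30% of all promoters. Oas1a, Bst2, Ifitm3 and Eif2ak2 held both. These are matches of letters in a window, not sites shown to be bound. For 20 of the 26 entries, the first transcribed bases also lay in a GENCODE M21 transcript of the gene.

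Of the 12 promoters, 8 are printed, those of 3 genes that differed between the subsets (Bst2, Ddx58, Eif2ak2) and of 5 genes whose values are given in full below. Each is written 5′ to 3′ on the gene's own strand in GRCm38 with the ISRE core letters in capitals.
Isg15 (chr4:156200855-156200916, minus strand): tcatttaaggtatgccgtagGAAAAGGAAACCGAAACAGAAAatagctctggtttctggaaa
Ifit1 (chr19:34640765-34640833, plus strand): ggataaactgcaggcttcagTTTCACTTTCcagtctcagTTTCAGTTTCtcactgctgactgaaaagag
Ifit3 (chr19:34583353-34583436, plus strand): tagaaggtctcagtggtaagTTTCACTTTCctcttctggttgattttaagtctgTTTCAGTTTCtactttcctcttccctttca
Rsad2 (chr12:26456543-26456592, minus strand): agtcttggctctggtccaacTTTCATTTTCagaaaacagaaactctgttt
Oas3 (chr5:120777705-120777754, minus strand): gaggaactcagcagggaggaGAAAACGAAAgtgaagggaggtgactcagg
Bst2 (chr8:71537567-71537622, minus strand): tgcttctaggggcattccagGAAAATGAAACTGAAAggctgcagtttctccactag
Ddx58 (chr4:40239796-40239843, minus strand): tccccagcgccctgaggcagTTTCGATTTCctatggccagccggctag
Eif2ak2 (chr17:78882543-78882574, minus strand): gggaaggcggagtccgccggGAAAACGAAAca
The Isg15 promoter held 3 overlapping matches, beginning 78, 72 and 66 bases before the start. Ifit1 held 2 separate matches beginning 104 and 85 bases before the start, and Ifit3 held 2 beginning 156 and 122 bases before it, all on the opposite strand. Bst2 carried 2 overlapping matches on its own strand, the first of which began 130 bases before the start. In Ddx58 and Eif2ak2 the match lay just after the start. The other 4 promoters with a match were those of Ifih1, Stat2, Oas1a and Ifitm3.

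**Figure D1:**
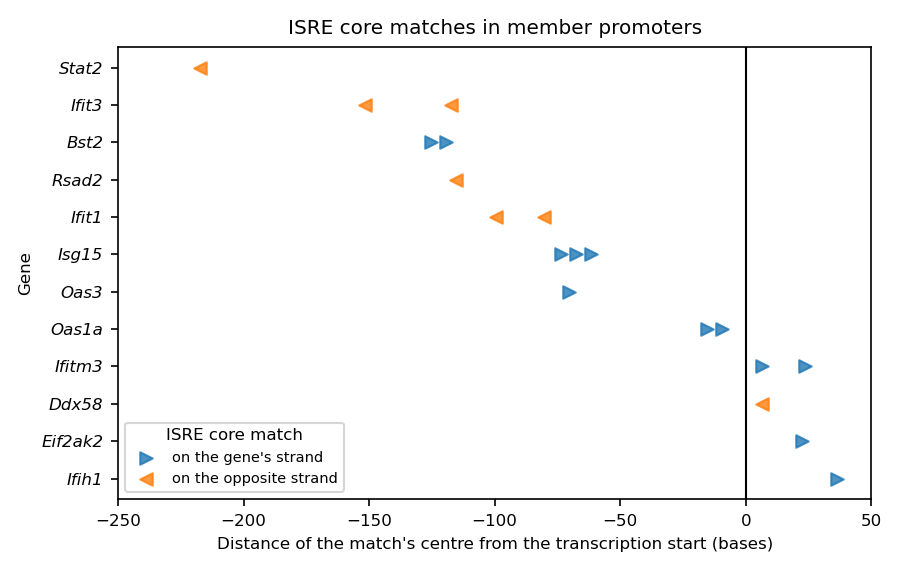
Position of each ISRE core match in the 12 member promoters that hold one, as the distance in bases of the centre of the match from the transcription start (vertical line at 0). Right-pointing triangles are on the gene's strand and left-pointing ones on the opposite strand, and Isg15 shows 3 neighbouring triangles.

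Several members are neighbours in the genome (GENCODE M21, GRCm38). Ifit2, Ifit3 and Ifit1 lie within 99.3 kb of chromosome 19 (34550694 to 34650009), and Oas2, Oas3 and Oas1a within 177.2 kb of chromosome 5 (120730333 to 120907521). Oasl2 and Oasl1 share 41.0 kb elsewhere on chromosome 5, Rsad2 and Cmpk2 37.1 kb of chromosome 12, Mx1 and Mx2 113.9 kb of chromosome 16, and Parp14, Dtx3l and Parp9 139.7 kb of the same chromosome. Exons of Parp9 and Dtx3l overlap by 458 bases on opposite strands. The authors' strand setting is not given in the sources used here, so reads in that stretch cannot be told apart. Oas1a shares 57.6% of its 50-base words with Oas1g and Ifit3 shares 51.2% with Ifit3b, so the counts of these 2 members are uncertain where counting could split near-identical copies.

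Library totals were 26190194 to 30308132 counts, and 1 count equalled 0.0309 to 0.0378 CPM, the usual count scaled to library size, here with edgeR's TMM factors. The cell labels were checked on Clec4f, a lectin of Kupffer cells, and Ccr2, the chemokine receptor of monocytes. Clec4f stood at 2736 to 12314 CPM in the Kupffer libraries and at 33.3 to 125 CPM in 3 MoM libraries, but at 3599 CPM in MoM WT replicate 1. Ccr2 stood at 3.88 to 13.1 CPM in Kupffer cells and 128 to 459.7 CPM in MoM. Tgfbr2, the mouse gene of the receptor, stood at 289 to 349 CPM in Kupffer cells and 174 to 249 CPM in MoM, with an adjusted p for TG against WT of 0.887 and 0.972 by edgeR. Those values do not check the transgene, since the sources used here do not say whether its reads were counted. In 6 libraries the summed level of 8 endothelial markers was 274.5 to 1829 CPM, but it reached 6788 CPM in Kupffer TG replicate 2 and 4651 CPM in MoM WT replicate 1. The summed level of 7 neutrophil markers was 3660 CPM in MoM TG replicate 2, against 1.94 to 547 CPM elsewhere. The 6 markers of plasmacytoid dendritic cells, a major source of interferon alpha, summed to 5.45 to 68.8 CPM. In such bulk libraries, fewer cells of a type and less RNA per cell cannot be told apart.

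Member levels ran from 8.58 CPM (Mx2 in MoM TG replicate 1) to 1065 CPM (Trim25 in Kupffer WT replicate 1). Per kilobase of exon, Ifitm3 had the highest level in each group (367 to 579 CPM per kb as group means). Bst2 and Irf7 followed in WT Kupffer cells, at 279 and 243 CPM per kb. Xaf1 had only 4.39 to 5.95 CPM per kb and Ifi44 3.16 to 9.58 CPM per kb.

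**Figure D2:**
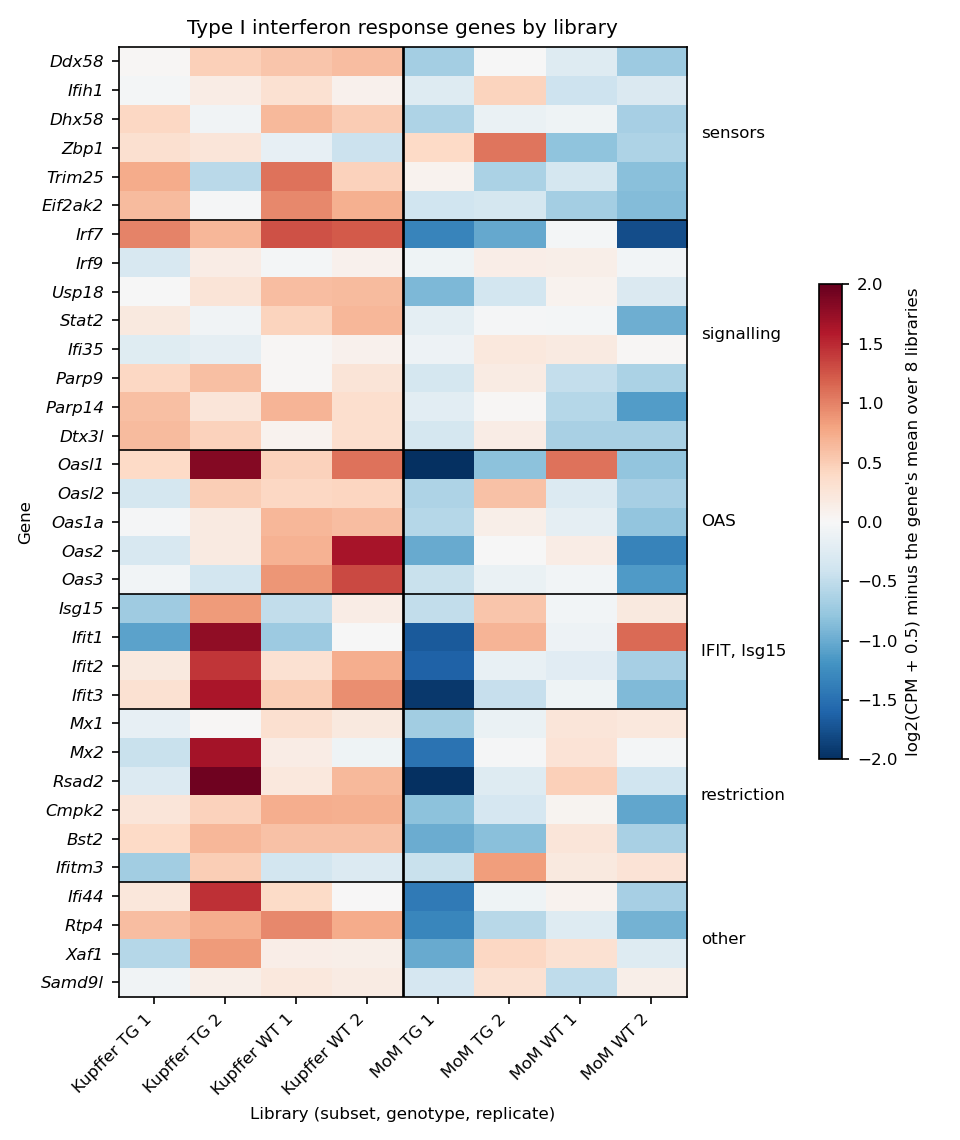
Level of the 33 genes (rows, grouped by role) in the 8 libraries (columns), as log2(CPM + 0.5) minus the gene's mean over all libraries. Kupffer libraries are left of the vertical line; the lowest library of a member was MoM WT replicate 2 for 13 members and MoM TG replicate 1 for 12.

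The comparison of the subsets asked how the resident and the monocyte-derived macrophages differ. Averaged over both genotypes, 10 of the 33 members were lower in MoM than in Kupffer cells and none was higher (edgeR quasi-likelihood test, Benjamini-Hochberg adjusted p below 0.05 over all genes tested). They were Irf7, Rtp4, Eif2ak2, Bst2, Cmpk2, Parp14, Ddx58, Usp18, Dtx3l and Parp9. That is 30.3% of the members, against 18.7% of all 15254 genes called in either direction and 8.05% called lower. The members' median log2 fold change was -0.74, with 28 of 33 negative, beside 0.09 for all genes tested. By role, 2 of 6 sensors, 5 of 8 signalling members, 0 of 5 OAS genes, 0 of 4 of Isg15 and the IFIT genes, 2 of 6 restriction factors and 1 of 4 other genes were called. In 10 members all 4 MoM libraries stood below all 4 Kupffer libraries, an order found in 11.4% of all genes. They were not the same 10. Usp18, Dtx3l and Parp9 were called but overlapped, while Dhx58, Ifit2 and Ifit3 did not overlap but were not called. Most fits that left out 1 library, and so left a group of 1, called fewer of the 10 called members. Fewer of all genes, 2845 in the main fit, were called in some of them too. Whether the loss is particular to the members was not tested. The log2 fold changes of the 10 called members were negative in each of the 14 alternatives computed. DESeq2 called 17 members lower and none higher (26.6% of its genes were called in either direction). A fit without Kupffer TG replicate 2 and MoM WT replicate 1, the libraries with the most endothelial RNA, was not planned and leaves 1 library in each of their groups. Those libraries also had the lowest Kupffer marker sum among Kupffer libraries and the highest among MoM, so the fit cannot single out endothelial RNA. The summed level of the 10 Kupffer markers moved with the subset difference. It was 15420 to 32340 CPM in Kupffer libraries, 9791 CPM in MoM WT replicate 1 and 322 to 738 CPM in the other 3 MoM libraries. The 10 monocyte markers summed to 145 to 192 CPM in Kupffer libraries and 834 to 3617 CPM in MoM. Other cell types moved with it too. The 6 markers of conventional dendritic cells summed to 41.9 to 157 CPM in Kupffer libraries and 823 to 1454 CPM in MoM, with 3 of 6 called higher. The 5 B cell markers summed to 20.1 to 37.9 CPM and 93.1 to 218 CPM, with 4 of 5 called higher, and 6 of 7 neutrophil markers were called higher. The part of cell composition in it was not tested.

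**Figure D3:**
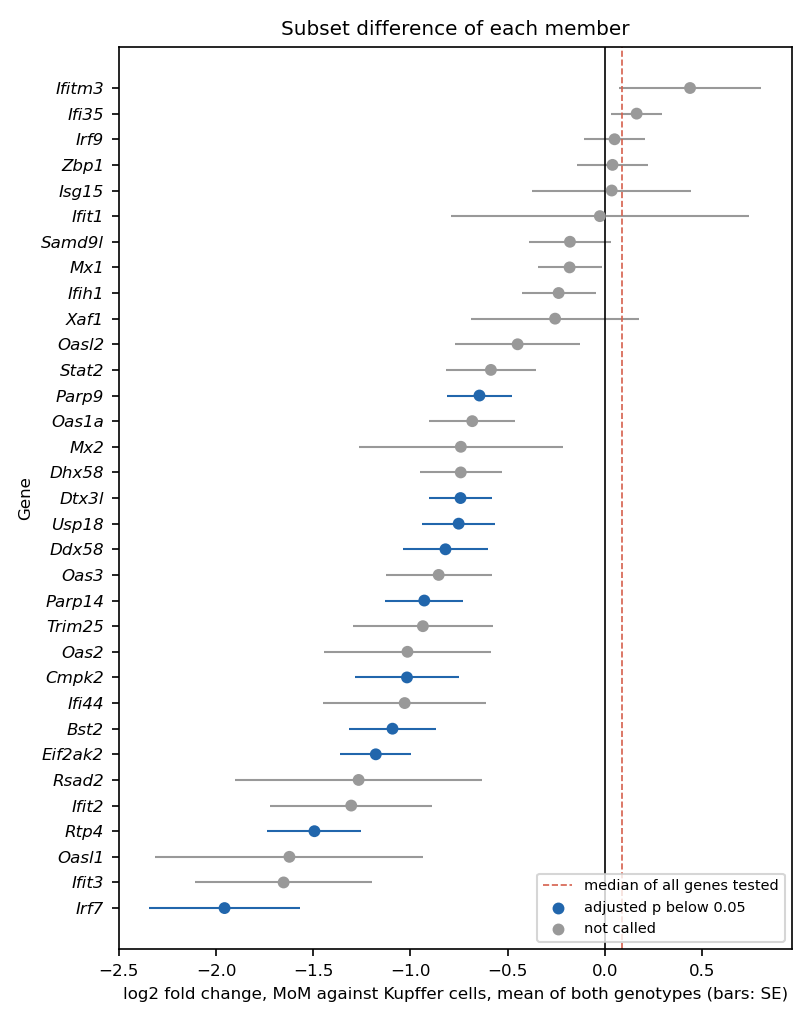
Log2 fold change of each member, MoM against Kupffer cells averaged over genotypes, with its standard error (bars) from the edgeR fit of 8 libraries. Blue points mark the 10 members with an adjusted p below 0.05, grey points the other 23, and the dashed line is the median of all genes tested (0.09).

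Among the sensors of foreign nucleic acid, Eif2ak2 had the smallest p. It encodes PKR, a kinase that halts translation when it binds double-stranded RNA. In Kupffer cells Eif2ak2 had 93.8 and 59.4 CPM in TG and 118 and 99.2 CPM in WT, and in MoM 45.4 and 47.3 CPM in TG and 37.3 and 32.8 CPM in WT. The 4 MoM libraries were all below the 4 Kupffer libraries, and Eif2ak2 was 2.26-fold lower in MoM (log2 fold change -1.18 ± 0.18 SE, adjusted p = 0.0151). The level of Ddx58 was 140.3 and 147 CPM in WT Kupffer cells, 97.0 and 133 CPM in TG Kupffer cells, 80.0 and 57.2 CPM in WT MoM, and 59.6 and 94.9 CPM in TG MoM. Ddx58, which encodes the RNA helicase RIG-I, was also called lower (log2 fold change -0.82), with no overlap between the subsets. Ifih1 encodes MDA5, the sensor of long double-stranded RNA. Ifih1 stood at 106 and 121 CPM in TG Kupffer cells, 134 and 115 CPM in WT Kupffer cells, 90.5 and 148 CPM in TG MoM, and 81.4 and 88.6 CPM in WT MoM. Its subsets overlapped, as MoM TG replicate 2 was the highest of all libraries. Dhx58 (LGP2, a helicase that modulates both sensors) stood at 70.9 to 117 CPM in Kupffer cells and 46.7 to 70.0 CPM in MoM, and its adjusted p was 0.0563 by edgeR and 0.0118 by DESeq2. Trim25, the ubiquitin ligase that helps to activate RIG-I, stood at 346 to 1065 CPM in Kupffer cells and 279.6 to 524 CPM in MoM, with overlap, and its adjusted p was 0.118 by edgeR and 0.0490 by DESeq2.

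Of the signalling members, the transcription factors did not move as one. Irf7 drives the amplification of interferon alpha production. In Kupffer cells Irf7 had 772 and 612 CPM in TG and 936 and 902 CPM in WT, and in MoM 154 and 191 CPM in TG and 377 and 113 CPM in WT. It fell in MoM by 1.96 ± 0.39 SE on the log2 scale (adjusted p = 0.0234), the largest difference among the called members. The level of Irf9 was 86.7 and 94.7 CPM in WT Kupffer cells, 70.8 and 98.9 CPM in TG Kupffer cells, 96.1 and 85.9 CPM in WT MoM, and 83.9 and 97.4 CPM in TG MoM. Irf9, the DNA-binding part of ISGF3, overlapped throughout, at a log2 fold change of 0.05. Stat2 stood at 183 and 153 CPM in TG Kupffer cells, 218 and 255 CPM in WT Kupffer cells, 140.5 and 158 CPM in TG MoM, and 155 and 81.5 CPM in WT MoM. Stat2, its partner, had overlapping subsets through MoM TG replicate 2 and MoM WT replicate 1, and its adjusted p was 0.125 in the edgeR test.

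The 3 neighbours on chromosome 16 were each called lower in MoM. Parp14 is a mono-ADP-ribosyltransferase of macrophages. In Kupffer cells Parp14 had 462 and 358 CPM in TG and 484 and 383 CPM in WT, and in MoM 263 and 308 CPM in TG and 204 and 140.1 CPM in WT. Its subsets did not overlap, and it fell by 0.93 ± 0.20 SE on the log2 scale (adjusted p = 0.0290). Dtx3l is a ubiquitin ligase that works bound to the protein of Parp9. The level of Dtx3l was 100.2 and 121 CPM in WT Kupffer cells, 149 and 132 CPM in TG Kupffer cells, 60.8 and 61.2 CPM in WT MoM, and 75.1 and 107 CPM in TG MoM. It fell by 0.74 ± 0.16 SE (adjusted p = 0.0296), although MoM TG replicate 2 stood above Kupffer WT replicate 1. Parp9 stood at 122 and 139.7 CPM in TG Kupffer cells, 93.5 and 111 CPM in WT Kupffer cells, 71.7 and 103 CPM in TG MoM, and 66.2 and 59.1 CPM in WT MoM. Parp9 showed the same overlap of MoM TG replicate 2 with Kupffer WT replicate 1 and had a log2 fold change of -0.64. Usp18, which removes ISG15 from proteins and damps signalling at IFNAR2, was low throughout (23.9 to 37.2 CPM in Kupffer cells and 12.5 to 25 CPM in MoM) and was called lower. Ifi35, an interferon-induced leucine zipper protein, was nearly level over the 8 libraries, at 49.1 to 67.6 CPM.

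None of the 5 members of the OAS family was called, although all 5 log2 fold changes were negative (edgeR quasi-likelihood test; 2 of 5, Oas3 and Oas1a, had an unadjusted p below 0.05, where 16.3% of all genes were lower). DESeq2 called 3 of the 5 lower, Oas1a, Oas3 and Oasl1. OAS enzymes make 2′-5′ oligoadenylates, which activate RNase L. Oas3 is the member with affinity for long RNA. In Kupffer cells Oas3 had 107 and 85.8 CPM in TG and 204 and 279 CPM in WT, and in MoM 81.2 and 101 CPM in TG and 106 and 50.2 CPM in WT. The WT Kupffer libraries stood above the other 6. The level of Oas2 was 193 and 374 CPM in WT Kupffer cells, 94.9 and 135 CPM in TG Kupffer cells, 132 and 46.9 CPM in WT MoM, and 59.2 and 119 CPM in TG MoM. Oas2 was likewise highest in WT Kupffer cells, although Kupffer TG replicate 2 and MoM WT replicate 1 were close to each other. Oas1a stood at 139 to 224 CPM in Kupffer cells and 81.3 to 153 CPM in MoM. Oasl1 stood at 255 and 688 CPM in TG Kupffer cells, 266 and 408 CPM in WT Kupffer cells, 19.8 and 109 CPM in TG MoM, and 411 and 111 CPM in WT MoM. Oasl1, an inhibitor of Irf7 translation, had both its lowest library and 1 of its 3 highest in MoM, and its subsets overlapped. Oasl2 stood at 94.8 to 171 CPM in Kupffer cells and 76.8 to 182 CPM in MoM.

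Isg15 encodes a ubiquitin-like protein attached to other proteins, and the IFIT proteins bind viral RNA. In Kupffer cells Isg15 had 31.3 and 93.8 CPM in TG and 36.5 and 56.9 CPM in WT, and in MoM 36.6 and 76.3 CPM in TG and 49.4 and 59.3 CPM in WT. The level of Ifit1 was 18.5 and 30.9 CPM in WT Kupffer cells, 14.6 and 108 CPM in TG Kupffer cells, 28.9 and 69.0 CPM in WT MoM, and 9.34 and 50.2 CPM in TG MoM. Kupffer TG replicate 2 was the highest library for both. Ifit2 stood at 198 and 465 CPM in TG Kupffer cells, 213 and 285 CPM in WT Kupffer cells, 55.9 and 156 CPM in TG MoM, and 147 and 109 CPM in WT MoM. In Kupffer cells Ifit3 had 156 and 392 CPM in TG and 177 and 239.9 CPM in WT, and in MoM 32.5 and 91.4 CPM in TG and 119 and 67.9 CPM in WT. For these 2 the 4 MoM libraries were below the 4 Kupffer libraries, at log2 fold changes of -1.30 and -1.65 whose adjusted p-values of 0.0747 and 0.0516 missed the threshold in the edgeR test, while DESeq2 called both lower. Over the 4 genes, the median centred log2 level was 1.53 in Kupffer TG replicate 2 against -0.25 in replicate 1, and 0.21 in MoM TG replicate 2 against -1.65 in replicate 1.

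Among the restriction factors, Bst2 and Cmpk2 were called lower. Bst2 encodes tetherin, which holds budding virions at the cell surface. The level of Bst2 was 251 and 253 CPM in WT Kupffer cells, 221 and 267 CPM in TG Kupffer cells, 198 and 107 CPM in WT MoM, and 83.7 and 93.5 CPM in TG MoM. It fell by 1.09 ± 0.22 SE on the log2 scale (adjusted p = 0.0252), and the highest MoM library was replicate 1 of the WT group. Cmpk2, a mitochondrial nucleotide kinase, stood at 58.2 to 81.9 CPM in Kupffer cells and 23.7 to 51.1 CPM in MoM. Its neighbour Rsad2 encodes viperin, an enzyme that makes a chain-terminating nucleotide. Rsad2 stood at 135 and 632 CPM in TG Kupffer cells, 188 and 257 CPM in WT Kupffer cells, 31.7 and 136 CPM in TG MoM, and 227 and 124 CPM in WT MoM. Its Kupffer and MoM libraries overlapped, and Kupffer TG replicate 2 was the highest. In Kupffer cells Ifitm3 had 192 and 435 CPM in TG and 241 and 256 CPM in WT, and in MoM 228 and 557 CPM in TG and 355 and 374 CPM in WT. Ifitm3, which blocks fusion of viruses in endosomes, had the highest log2 fold change of all members (0.44 ± 0.37 SE, adjusted p = 0.434). Mx1, a dynamin-like GTPase against influenza virus whose allele in C57BL/6 mice is defective, stood at 44.3 to 62.1 CPM in Kupffer cells and 30.3 to 58.5 CPM in MoM. Mx2 stood at 18.2 to 80.1 CPM and 8.58 to 30.2 CPM, and GENCODE M21 annotates it as a polymorphic pseudogene.

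The last group holds induced genes of other kinds. Rtp4, a receptor-transporting protein, was called lower in MoM. The level of Rtp4 was 171 and 146 CPM in WT Kupffer cells, 135 and 146 CPM in TG Kupffer cells, 73.2 and 45.3 CPM in WT MoM, and 35.1 and 59.7 CPM in TG MoM. The lowest Kupffer library stood at 135 CPM and the highest MoM library at 73.2 CPM, and it fell by 1.49 ± 0.24 SE on the log2 scale (adjusted p = 0.0159). Of its 50-base words, 11.6% also occur in Gm45338. Ifi44 stood at 29.7 to 82.7 CPM in Kupffer cells and 10.8 to 31.2 CPM in MoM. Xaf1, a pro-apoptotic zinc-finger protein, stood at 15.0 to 40.9 CPM and 11 to 30.2 CPM. Samd9l, a restriction factor of poxviruses, stood at 90.4 to 109 CPM and 66.6 to 117 CPM.

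**Figure D4:**
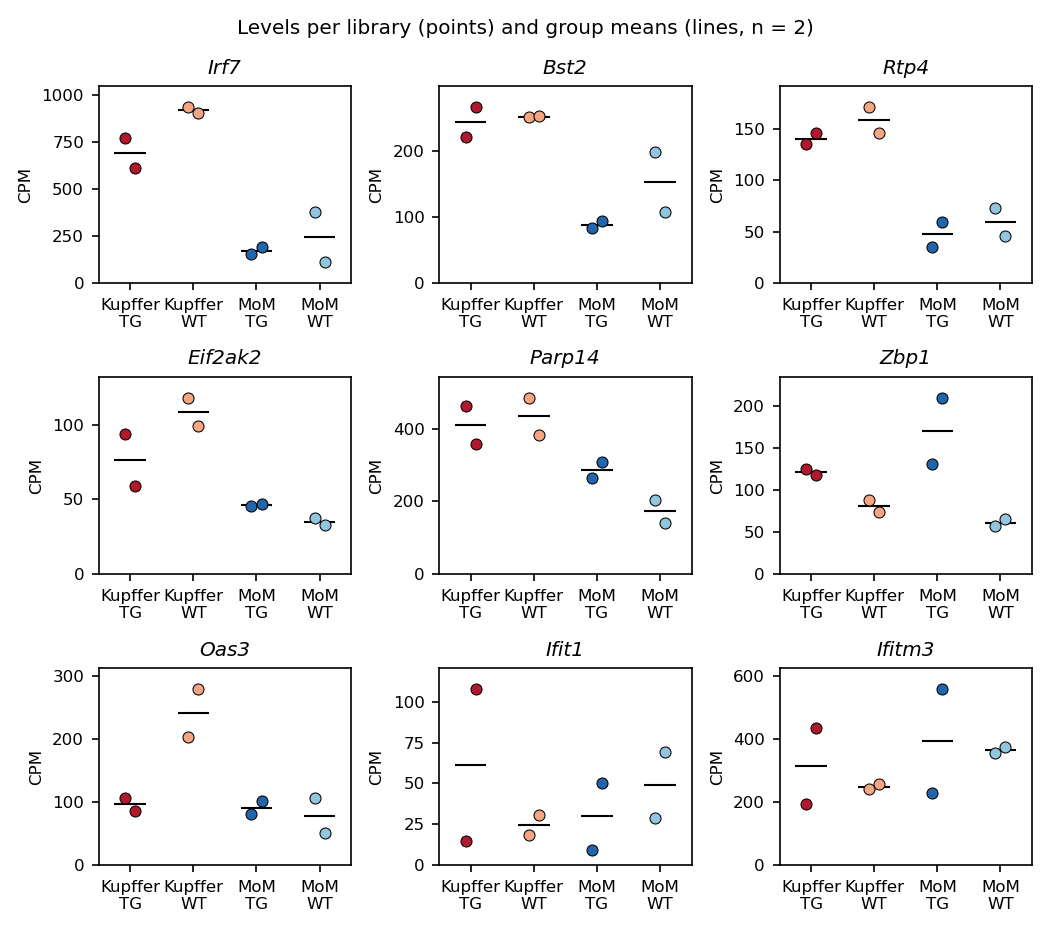
CPM of 9 members in each library (points) and group means (lines, n = 2 libraries per group). Irf7, Bst2, Rtp4, Eif2ak2 and Parp14 show MoM below Kupffer cells without overlap, Zbp1 is higher in TG in both subsets, Oas3 is highest in WT Kupffer cells, and Ifit1 and Ifitm3 show the spread within the TG groups.

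Within each genotype on its own, no member passed the threshold in the edgeR quasi-likelihood test. In WT, 1.17% of all genes were called. At an unadjusted p below 0.05, 15 members were lower and none higher, beside 10.5% of all genes lower and 14.9% higher. The smallest adjusted p-values were those of Eif2ak2 (log2 fold change -1.63 ± 0.26 SE, adjusted p = 0.0501), Parp14 (-1.33 ± 0.29, 0.0811), Rtp4 (-1.42 ± 0.34, 0.0935) and Oas3 (-1.63 ± 0.39, 0.0950). In TG, 2.50% of all genes were called. At an unadjusted p below 0.05, 11 members were lower and none higher, beside 11.4% of all genes lower and 14.1% higher. Its smallest adjusted p-values were those of Bst2 (log2 fold change -1.46 ± 0.32 SE, adjusted p = 0.0661), Rtp4 (-1.57 ± 0.34, 0.0668), Irf7 (-2.0 ± 0.55, 0.0928) and Ifit3 (-2.14 ± 0.66, 0.113). The median of the 33 members was -0.74 in WT and -0.55 in TG, beside 0.11 and -0.04 for all genes. DESeq2 called 12 members lower in WT and 8 in TG and none higher, where it called 17.8% and 17.5% of its genes in either direction.

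The comparison of TG with WT asked what the T cell-driven disease model changes in the macrophages. No member was called in Kupffer cells, in MoM or over both subsets (edgeR quasi-likelihood test), and none of all 15254 genes was called in any of the 3, that is 0%. The interaction, the TG difference in MoM minus that in Kupffer cells, also called 0% of genes and no member. DESeq2 called 1 member, Zbp1, in MoM and over both subsets, and none in Kupffer cells or in the interaction. It called 1.01%, 1.72%, 1.90% and 0.296% of all genes in these 4. At an unadjusted p below 0.05, edgeR gave 1 lower member in Kupffer cells, 3 higher and 2 lower in MoM, 3 higher and 2 lower over both, and 3 above 0 in the interaction. Of all genes, 4.68% were higher and 1.26% lower at that threshold in Kupffer cells, 3.42% and 3.05% in MoM, 3.89% and 2.51% over both, and 2.66% were above 0 in the interaction.

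Zbp1, a sensor of Z-form nucleic acid that triggers necroptosis, had the smallest p among the members in MoM and over both subsets. Zbp1 stood at 125 and 118 CPM in TG Kupffer cells, 88.9 and 74.1 CPM in WT Kupffer cells, 132 and 210.0 CPM in TG MoM, and 57.4 and 65.2 CPM in WT MoM. Both TG libraries stood above both WT libraries in each subset. Its log2 fold change was 0.58 ± 0.26 SE in Kupffer cells (adjusted p = 0.730), 1.48 ± 0.27 in MoM (0.618) and 1.03 ± 0.19 over both (0.426) in the edgeR test. The adjusted p by DESeq2 was 0.00359 in MoM and 0.00196 over both subsets. Dtx3l and Parp9 were the other members above WT without overlap in both subsets, so that 3 members held this order, against 3.52% of all genes. Mx1 and Usp18 stood below WT without overlap in both subsets, an order held by 2.92% of all genes. Over both subsets the log2 fold changes were 0.46 ± 0.16 SE for Dtx3l (adjusted p = 0.721), -0.47 ± 0.16 for Mx1 (0.718) and -0.52 ± 0.19 for Usp18 (0.733) by edgeR.

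In Kupffer cells, 14 of the 33 members had both TG libraries below both WT libraries (42.4%), against 17.7% of all genes. They were Oas1a, Oas2, Oas3, Eif2ak2, Ddx58, Dhx58, Stat2, Irf7, Usp18, Ifi35, Mx1, Cmpk2, Rtp4 and Samd9l. Only 3 members, Zbp1, Parp9 and Dtx3l, stood above without overlap, against 16.7% of all genes. The median log2 fold change was -0.14, beside 0.03 for all genes. It ranged from -0.32 without Kupffer TG replicate 2 to -0.02 without Kupffer WT replicate 1. The smallest p was that of Oas3 (log2 fold change -1.32 ± 0.39 SE, adjusted p = 0.730 by edgeR). Oas2 (-1.30 ± 0.61) and Eif2ak2 (-0.50 ± 0.26), at the same adjusted p, followed Zbp1. The IFIT genes and Isg15 had positive log2 fold changes in all 4 cases (0.40 to 1.31), with overlapping groups, since Kupffer TG replicate 1 was below both WT libraries and replicate 2 above both. Replicate 2 also carried the high endothelial marker sum given above. The neutrophil markers summed to 32.1 CPM in Kupffer TG replicate 1 and 14.4 CPM in replicate 2, and to 1.94 and 2.20 CPM in WT. The part of those cells in these differences was not tested.

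The authors' deposited table holds 179 genes compared between TG and WT, and the subset is not named in it. Oas3 is the 1 member in the authors' deposited table, at a log2 fold change of -1.31 with an adjusted p of 0.00387. Its mean of normalized counts there was 4551. The counts of Oas3 deposited per library were 2328 to 7479 in Kupffer cells and 1559 to 3444 in MoM, so that mean lay above each MoM count. Of the 12 interferon gamma GTPases set beside the members here, a list chosen with earlier results of these data known, 10 are in it. These counts stand beside 179 genes listed there and 15254 genes tested here, and the difference between the lists was not tested. DESeq2, run here on all 8 libraries, gave Oas3 in Kupffer cells a log2 fold change of -1.31 with an adjusted p of 0.0873.

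In MoM, 6 members (18.2%) had both TG libraries above both WT libraries, against 19.2% of all genes. Both were below in 4 members (12.1%), against 20.0%. The 6 were Zbp1, Parp14, Dtx3l, Parp9, Ifih1 and Eif2ak2, and the 4 were Mx1, Bst2, Oasl1 and Usp18. Bst2 and Oasl1 were higher in MoM WT replicate 1, where the Kupffer markers summed to 9791 CPM, than in replicate 2, where they summed to 322 CPM. The part of Kupffer cell RNA in these differences was not tested. After Zbp1 the smallest p-values were those of Mx1 (log2 fold change -0.62 ± 0.23 SE, adjusted p = 0.755 by edgeR), Parp14 (0.73 ± 0.28, 0.755) and Bst2 (-0.78 ± 0.31, 0.757). The median over the members was -0.01, beside -0.04 for all genes. It turned on single libraries, from -0.44 without MoM TG replicate 2 to 0.29 without MoM TG replicate 1. The library with the higher values, MoM TG replicate 2, stood above replicate 1 in 32 of 33 members (Trim25 was the exception), by a median of 0.67 on the log2 scale. Over all genes, 55.9% stood higher in that replicate, by a median of 0.08. In Kupffer TG, replicate 2 was higher in 24 of 33 members, against 52.3% of all genes, and in MoM WT it was higher in 7, against 47.4%. MoM TG replicate 2 also held the high neutrophil marker sum given above, and the part of those cells in it was not tested. For the interaction, the smallest p-values were those of Oas3 (1.54 ± 0.55 SE), Eif2ak2 (0.91 ± 0.36), Zbp1 (0.90 ± 0.37) and Parp14 (0.81 ± 0.40), each at an adjusted p of 0.626 by edgeR.

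**Figure D5:**
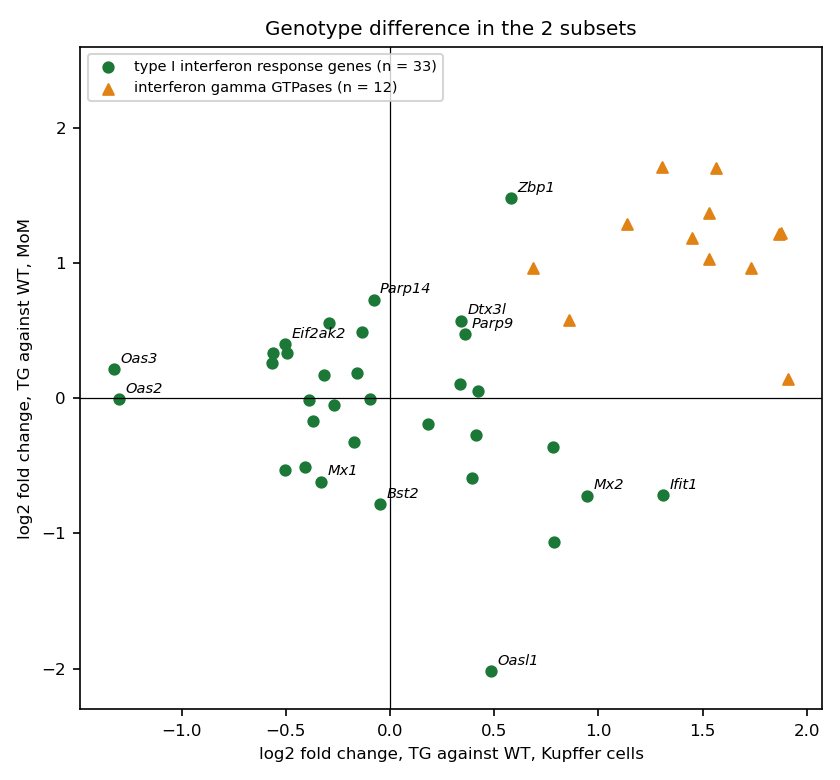
Log2 fold change of TG against WT in Kupffer cells (horizontal axis) and in MoM (vertical axis) for the 33 type I interferon response genes (circles) and 12 interferon gamma GTPases (triangles). All 12 triangles lie above 0 on both axes, whereas the circles lie on both sides of 0 on each. Both lists were chosen with earlier results of these data known.

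The interferon gamma GTPases (guanylate-binding proteins and immunity-related GTPases) lean on interferon gamma and were set beside the members. They were chosen with earlier results of these data known, so their values in TG describe the list and are not a test. All 12 were positive in TG in both subsets, with medians of 1.53 in Kupffer cells and 1.2 in MoM, beside -0.14 and -0.01 for the 33 members. Both TG libraries stood above both WT libraries for 12 of 12 in Kupffer cells and for 10 of 12 in MoM, against 16.7% and 19.2% of all genes. None passed the adjusted threshold in the edgeR test, and 10 and 9 were higher at an unadjusted p below 0.05, where 4.68% and 3.42% of all genes were. DESeq2 called 8 of them in Kupffer cells and 2, Gbp4 and Gbp5, in MoM, where it called 1.90% and 1.01% of its genes. Gbp4 had the smallest p in Kupffer cells (log2 fold change 1.88 ± 0.31 SE, adjusted p = 0.660) and Gbp5 in MoM (1.70 ± 0.28, 0.618). The difference between these genes and the members was not tested. Between the subsets the 12 GTPases had a median log2 fold change of -0.91 in MoM. By edgeR 7 of them were called lower, against 8.05% of all genes, among them Gbp3 (-1.46 ± 0.25 SE, adjusted p = 0.0173).

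The other genes of the pathway came from lists of ligands, receptor chains, inducing factors, negative regulators and further induced genes. Of 18 type I interferon ligand genes, 2 had enough counts to be tested, Ifnb1 and Ifna2. In Kupffer cells Ifnb1 had 0.529 and 6.78 CPM in TG and 0.215 and 7.28 CPM in WT, and in MoM 0 and 12.1 CPM in TG and 8.62 and 19.0 CPM in WT. The 0 in MoM TG replicate 1 was a count of 0, which allows up to 0.113 CPM, a limit for counting error only. Replicate 2 stood above replicate 1 in all 4 groups. Of the members, only Isg15, Ifit1 and Ifitm3 held this order in all 4 groups, and Trim25 held the reverse. In MoM WT, whose replicate 2 had the most Ifnb1, replicate 2 was higher in only 7 of 33 members. A relation between Ifnb1 and the members was not tested. Neither ligand gene was called between the subsets by edgeR or DESeq2 (no unadjusted p of the pair was below 0.05 there). Ifna2 was at or below 0.417 CPM in each library.

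Of the receptor chains and their kinases, Ifnar2 was called lower in MoM over both genotypes. The level of Ifnar2 was 292 and 297 CPM in WT Kupffer cells, 237 and 210.1 CPM in TG Kupffer cells, 175 and 123 CPM in WT MoM, and 133 and 141 CPM in TG MoM. The subsets did not overlap, and Ifnar2 fell by 0.85 ± 0.16 SE on the log2 scale (adjusted p = 0.0222). Ifnar1, Jak1 and Tyk2 were not called, at log2 fold changes of 0.05, -0.03 and 0.16. Of the 16 adaptors, kinases and factors that induce interferon, edgeR called 2 lower and none higher. Of all genes, 8.05% were called lower and 18.7% in either direction. The 2 were Mavs, the mitochondrial adaptor of RIG-I and MDA5 (-2.07 ± 0.38 SE, adjusted p = 0.0196), and Tlr7, the endosomal sensor of single-stranded RNA (-1.21 ± 0.27, 0.0305). Mavs stood at 123 and 70.7 CPM in TG Kupffer cells, 130.5 and 172 CPM in WT Kupffer cells, 27.4 and 20.3 CPM in TG MoM, and 51.1 and 18.5 CPM in WT MoM. The 4 Kupffer libraries of Mavs stood above all 4 MoM libraries. DESeq2, which called 26.6% of its genes in either direction, called Mavs, Tlr7 and Ikbke lower and Irf5 higher. Irf5 stood at 185 to 286 CPM in Kupffer cells and 332 to 443 CPM in MoM, without overlap. None of the 8 negative regulators was called by edgeR (1 higher and 1 lower at an unadjusted p below 0.05), and they had a median of 0.06. DESeq2 called 1 of them, the RNA-editing enzyme gene Adar, lower.

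Of 36 further induced genes tested, edgeR called 13 lower in MoM and 2 higher, with a median of -0.63. Over all genes, 8.05% were called lower and 18.7% in either direction. Lgals3bp, a secreted glycoprotein that binds galectins, fell by 1.78 ± 0.33 SE (adjusted p = 0.0209) and Parp11, a mono-ADP-ribosyltransferase, by 0.87 ± 0.17 (0.0222). Ifitm1, a relative of Ifitm3, rose by 3.23 ± 0.58 SE (adjusted p = 0.0188). In Kupffer cells Ifitm1 had 3.59 and 12.4 CPM in TG and 2.51 and 1.75 CPM in WT, and in MoM 74.0 and 60.0 CPM in TG and 9.63 and 35.6 CPM in WT. The lowest MoM library was below Kupffer TG replicate 2, so the subsets overlapped. In TG against WT, none of the pathway genes named here was called by edgeR in Kupffer cells or in MoM, and DESeq2 called Irf1 and Socs1 higher in Kupffer cells. Irf1, a factor shared with interferon gamma, had a log2 fold change of 0.75 ± 0.21 SE in Kupffer cells (adjusted p = 0.730), and Socs1, a feedback inhibitor, 1.99 ± 0.56 (0.730).

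Members were also compared by whether their promoter held the ISRE core. The 12 with a match had a median log2 fold change of -0.75 in MoM against Kupffer cells, and the 12 with a promoter but no match had -0.84. In each set 3 members were called lower. For TG against WT the medians were -0.09 and -0.13 in Kupffer cells and 0.14 and -0.11 in MoM. These sets are small and the difference between them was not tested.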

How the data were processed

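The authors sequenced polyadenylated RNA of 8 libraries and deposited 1 table of counts per gene symbol for each. STAR 2.5.2b and the mm10 build are named in the submitters' processing notes; the counting program, its strand setting and the annotation are not stated by the sources used here. Most counts are even (65 to 68% of those under 20), and the values were used as deposited. Per the file headers, the authors' deposited comparison table gives a mean of normalized counts, a log2 fold change with its standard error, a test statistic (a score), a p-value and an adjusted p-value per gene.

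Counts were fitted with edgeR 4.0.16 (limma 3.58.1, R 4.3.3): filterByExpr, TMM scaling, 1 quasi-likelihood model over the 4 groups and 7 contrasts, with Benjamini-Hochberg adjustment over 15254 genes and a threshold of 0.05. DESeq2 1.42.0, other scalings, no filter, a replicate block and leaving out libraries were the alternatives. The model had 4 residual degrees of freedom and a common dispersion equal to a biological coefficient of variation of 0.507. Levels are CPM, standard errors come from the fitted F statistic, and centred levels use log2(CPM + 0.5). The script was tested on simulated data. Members and lists were chosen with earlier results of these data known. Fold changes with errors are given for called members (the 6 of smallest p where more were called), for the 4 members of smallest p where fewer than 4 were called, and for up to 3 genes per other list. Other members named with a value were chosen after their values were seen. Gene positions come from GENCODE M21 (97.9% of symbols matched), and promoters from RefSeq. Python 3.11.15 and pandas 2.3.3 were used for sequences. 1 gene of the pathway lists is not reported here.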

Additional observations from a re-analysis of the deposited data

Results flagged for a closer look

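For Eif2ak2, which encodes the kinase PKR, both TG libraries stood below both WT libraries in Kupffer cells and above both in MoM. Neither difference passed the edgeR test (adjusted p = 0.730 and 0.820). Its TG difference in MoM minus that in Kupffer cells was 0.91 ± 0.36 SE on the log2 scale, with an adjusted p of 0.626 by edgeR. Of all 15254 genes tested, 6.58% had such an opposite order, and Eif2ak2 was the 1 member among them.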

How the results depend on the processing

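Each comparison rests on 2 libraries per group, and a fit that leaves out 1 library leaves a group of 1. The numbers of calls of such fits are therefore not given. For MoM against Kupffer cells over both genotypes (10 members called), leaving out 1 library gave 0 to 13 calls, library totals without TMM 6, DESeq2 17 and the fit without both libraries richest in endothelial RNA 17. Library totals moved the median of all genes from 0.09 to 0.22 and the members' median from -0.74 to -0.62. In WT alone edgeR called 0 members and 1.17% of all genes, and DESeq2 called 12 members and 17.8% of its genes. The members' median in WT was -1.12 without both libraries richest in endothelial RNA. In TG alone (0 called), DESeq2 gave 8, the fit without both 4 and leaving out 1 library 0 to 3. For TG against WT, DESeq2 called 1 member in MoM and 1 over both subsets, beside 1.01% and 1.72% of its genes. The members' median in MoM ran from -0.44 to 0.29 over the fits without 1 library. The cause of these shifts was not tested. The members' median for the interaction was 0.11, and -0.05 with library totals. The labels do not say that a replicate number marks shared animals or days, so the samples were not treated as pairs. Correlations of same-numbered deviations across genes were above 0.1 for 4 of the 6 pairs of groups (up to 0.62, for Kupffer TG and MoM TG) and -0.14 and 0.08 for the others. With the replicate block, the log2 fold changes over both genotypes of the 10 called members all stayed negative. The stricter ISRE motif, with a flanking CT, was found for 6 of the 24 member genes with a promoter (25%), against 0.303% of all genes and 0.271% of all promoters. The limit given for the Ifnb1 count of 0 covers counting error only.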
